A study of Homo sapiens with 4 samples.

Results

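The insulin-like growth factor (IGF) binding proteins and their partners were measured in SAS cells, a squamous carcinoma line of the tongue that belongs to head and neck squamous cell carcinoma (HNSCC), with and without knockdown of AEG-1. The genes were chosen by name: the binding proteins IGFBP1 to IGFBP7, the receptors IGF1R and IGF2R, and the ligand IGF2. By RefSeq accession, these 10 genes matched 11 of the 34127 distinct probes on the array. IGF2 had a pair of probes and each other gene a single one. A further 9301 probes had no such match, and a member probe among them would be missed. SB cells carried pLKO.1-LYRIC shRNA-B, a lentiviral hairpin against AEG-1 (gene symbol MTDH, also called LYRIC). The SCt control cells are labelled as carrying pLKO.1 vector, and the study's methods describe a scrambled hairpin. Both were selected as stable clones for 14 days in 2 μg/ml puromycin and grown in medium with 10% serum and puromycin. Whether each line came from a single clone or several is not given in the sources used here. RNA from SB cells (red dye) and from SCt cells (green dye) was hybridized together on each of 4 arrays, so every value below is a log2 ratio of SB over SCt unless a level is named. A negative log2 ratio means a lower level in SB cells.

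IGF1 and IGF2 act on cells through IGF1R, a receptor tyrosine kinase that signals through IRS adaptors to PI3K and MAPK. IGF2R, the cation-independent mannose 6-phosphate receptor, takes IGF2 up for degradation and has no kinase. The secreted binding proteins IGFBP1 to IGFBP6 hold IGFs with high affinity, prolong their life and keep them from, or release them at, the receptor, whereas IGFBP7 binds IGFs weakly. IGFBP7 has been described elsewhere as a gene that MTDH represses, which makes it the member of interest for a knockdown of MTDH.

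The labels call the 4 arrays biological replicates, and nothing says that the RNA came from separate cultures, so the p-values measure the spread between these arrays, which may be technical. With 0 dye-swapped arrays, the preference of a probe for one dye cannot be told apart from the knockdown. The median raw intensity per array was 655 to 875 in the SB channel and 362 to 588.5 in the SCt channel, and 84.7% to 90.3% of spots were well above background in a channel. With 4 arrays the precision is limited by their number. Over all kept probes, the correlation of the log2 ratios between pairs of arrays ran from 0.05 to 0.46. All 9 squamous epithelial markers examined were above background in both channels of every array. The same was true of 4 of 7 fibroblast, 5 of 5 endothelial and 4 of 4 leukocyte markers on the array, so the background flag alone does not tell a cell type. Of these lists, COL3A1 and LUM were above background on no array, and no marker passed an adjusted p of 0.05. In bulk RNA, fewer cells that express a gene and less RNA per cell cannot be told apart.

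MTDH, the target of the hairpin, was lower in SB cells on all arrays, with log2 ratios of −3.18, −3.01, −3.12 and −3.41 on arrays 1 to 4. The mean of −3.18 ± 0.17 (SD, n = 4) equals a 9.07-fold lower level, with a limma adjusted p of 5.2e-10. The direction of the labels held on each array.

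Of the IGF family, IGFBP6 fell in SB cells, and no other member passed the test. IGFBP6 was 1.54-fold lower. IGFBP7 had nearly the same level in both lines, and IGF1R was 1.30-fold higher at an adjusted p just above the threshold. A gene was counted as called at an adjusted p under 0.05, over the probes well above background in one and the same channel of all arrays. By this rule 1 of the 9 member genes tested was called, beside 3.52% of all 23484 genes tested. Lower calls made up 2.26% and higher calls 1.26% of all genes. At an unadjusted p under 0.05 the family held 5 of 9 genes, with IGF1R, IGF2R and IGFBP3 higher and IGFBP1 and IGFBP6 lower, beside 18.2% of all genes. The median log2 ratio of the tested members was 0.03 and that of all tested genes was 0.01. Without regard to sign, the median size was 0.20 for the members and 0.07 for all genes. Over all kept probes 3.7% were called, with 377 higher (1.32%) and 679 lower (2.38%), whereas centring each array on its median in place of loess gave 5599 higher and 3338 lower and called 4 members.

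**Figure D1:**
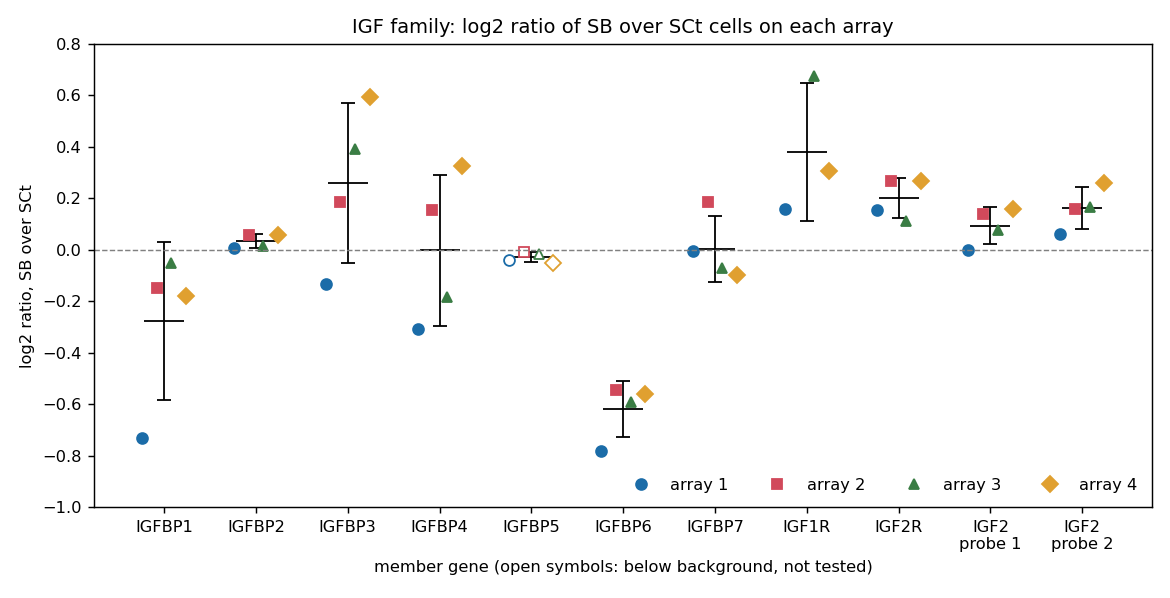
Log2 ratio of SB over SCt (vertical axis) for each IGF family probe (horizontal axis), with one symbol per array, the mean as a horizontal line and the SD as an error bar. The 4 IGFBP6 values sit between −0.78 and −0.54, below those of every other member except the lowest IGFBP1 value, and the IGFBP7 values sit on both sides of 0. Open symbols mark IGFBP5, which was not above background and was not tested.

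IGFBP6 binds IGF2 in preference to IGF1 and is known mainly as an inhibitor of IGF2. Its promoter is shown because it was the member that passed the test, and because the study asked about promoters under NF-κB. The promoter of IGFBP3 is shown beside it as that of the member whose level varied most between arrays. Each runs from 250 bases before to 50 bases after the RefSeq start (GRCh38.p14), 5′ to 3′ on the gene's strand, with GC boxes (GGGCGG on either strand) in capitals. IGFBP6 lies at chr12:53097417-53097716 on the plus strand and IGFBP3 at chr7:45921223-45921522 on the minus strand.
IGFBP6: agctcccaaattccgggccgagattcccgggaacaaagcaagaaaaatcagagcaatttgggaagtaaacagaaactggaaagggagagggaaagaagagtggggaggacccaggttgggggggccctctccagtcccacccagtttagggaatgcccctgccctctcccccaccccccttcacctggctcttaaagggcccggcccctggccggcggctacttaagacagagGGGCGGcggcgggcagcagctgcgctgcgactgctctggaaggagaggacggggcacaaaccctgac
IGFBP3: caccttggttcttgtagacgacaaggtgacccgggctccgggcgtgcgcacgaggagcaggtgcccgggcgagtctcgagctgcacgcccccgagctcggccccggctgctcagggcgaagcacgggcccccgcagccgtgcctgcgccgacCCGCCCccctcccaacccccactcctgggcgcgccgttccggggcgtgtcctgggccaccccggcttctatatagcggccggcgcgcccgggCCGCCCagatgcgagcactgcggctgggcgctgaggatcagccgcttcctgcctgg
The IGFBP6 promoter had a GC content of 61.7% and 12 CpG dinucleotides, against 74.7% and 36 in that of IGFBP3. The medians over all 35116 promoters of this length were 58.7% and 14. IGFBP6 held 1 GC box, which starts 17 bases before the start site, and IGFBP3 held 2. Among the 9 promoters listed for 7 of the members, 7 held a GC box, as did 45.0% of all promoters. Both strands were also searched for a κB motif of 10 bases that starts with GGG and ends, after any 2 bases, with TTTCC. The AP-1 motif was searched as TGANTCA and the TATA motif as TATAAA, and no match overlapped a GC box in the member promoters. Of the member promoters, 0 held the κB letters and 0 the AP-1 letters, found in 1.91% and 7.71% of all promoters, and the IGFBP4 promoter held the TATA letters, found in 11.5%. With shares this low, 0 of 9 promoters says little about the members. These matches describe the letters in the window only, so a site with other letters or outside the window would be missed. IGFBP1, IGFBP7 and IGF2 were not matched in the promoter table.

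The log2 ratio of IGFBP6 (probe A_23_P139912) was −0.78 on array 1, −0.54 on array 2, −0.59 on array 3 and −0.56 on array 4. SB cells had the lower level on every array, and the 4 values lay within 0.24 of each other. The mean was −0.62 ± 0.11 (SD, n = 4), with a 95% interval of −0.75 to −0.49 and a limma adjusted p of 0.00023. Among all 23484 genes tested, 31 (0.132%) had a log2 ratio as low or lower. As normalized log2 levels, SB cells showed 9.31, 10.18, 9.99 and 8.68 on arrays 1 to 4, and SCt cells showed 10.09, 10.73, 10.58 and 9.24. The ranges of the lines overlapped across arrays, while within each array SCt cells were higher. Before normalization the IGFBP6 spot read 798, 1367, 1534 and 454 in the SB channel and 682, 1306, 1577 and 414 in the SCt channel. In these raw values SB cells were the lower channel on array 3 alone, since the red channel was brighter over the whole array, and the lower level on the other arrays rests on the dye normalization. The scanner software's own dye normalization gave −0.67 and median centring gave −0.55, both past the threshold. Without array 1, 2, 3 or 4 the mean stayed between −0.64 and −0.56, with adjusted p from 3.3e-08 to 0.015. The methods' t-test on the same values gave an adjusted p of 0.187 for IGFBP6 and called 0 of all probes, with 3936 at an unadjusted p under 0.05.

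IGFBP7 (probe A_23_P353035), also known as angiomodulin or MAC25, was close to equal in the lines. Its log2 ratio was −0.0045 on array 1, 0.19 on array 2, −0.07 on array 3 and −0.10 on array 4. One array was above 0 and the others were below. The mean was 0.0037 ± 0.13 (SD, n = 4), with a 95% interval of −0.13 to 0.14 and a limma adjusted p of 0.984. On the linear scale this interval runs from 0.912-fold to 1.1-fold. A level in SB cells more than 1.1-fold higher lies outside it, but the interval covers only the spread between these arrays after loess. A dye preference of the probe is not part of it. The normalized log2 level was 12.69, 13.28, 12.78 and 12.17 in SB cells and 12.70, 13.09, 12.85 and 12.27 in SCt cells, with both channels above background on all arrays. Leaving out array 2 turned the sign of the mean, to −0.06. Median centring gave 0.16 at a limma adjusted p of 0.087, which lies above the upper bound of that interval.

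Within each array, IGFBP7 was set against the rest of its family. The log2 ratio of IGFBP7 minus the median of the other 5 tested binding proteins was 0.30, 0.13, −0.02 and −0.16 on arrays 1 to 4. The signs were mixed, and the mean difference of 0.06 ± 0.20 (SD, n = 4) gave a two-sided exact sign-flip p of 0.75. Against IGF1R the difference was −0.16, −0.75 and −0.40 on arrays 1, 3 and 4. IGFBP7 lay below the receptor on all 3 arrays that could be compared, by −0.44 ± 0.29 (SD, n = 3), with an exact sign-flip p of 0.25, the smallest that 3 arrays allow. With the outlier spot of IGF1R kept, the mean difference over 4 arrays was −0.28 at an exact sign-flip p of 0.375. In the authors' series table, which also has a value for array 2, it was −0.23 at 0.50. Both p-values lie above the smallest that 4 arrays allow, so in neither case were all 4 differences below 0. The shared sign of the 3 arrays thus rests on leaving out array 2. With that spot left out, and without array 3, the mean difference was −0.28. Against IGFBP6, picked after its values were seen, the difference was 0.78, 0.73, 0.52 and 0.46, a mean of 0.62 ± 0.15 (SD, n = 4). IGFBP7 lay above IGFBP6 on every array, with an exact sign-flip p of 0.12, the smallest that 4 arrays allow. Since IGFBP6 was picked for its low values, this order and its p follow from that choice and are no separate result.

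IGFBP1, a binding protein known for its regulation by insulin, had a log2 ratio of −0.73 on array 1, −0.15 on array 2, −0.05 on array 3 and −0.18 on array 4. All values were below 0, and array 1 was far below the others. The mean was −0.28 ± 0.31 (SD, n = 4) at a limma adjusted p of 0.138. Without array 4 it was −0.31 at 0.018, and without array 1 it was −0.13 at 0.358. IGFBP1 was read by 1 dim spot per array, at 240 to 642.5 in the SB channel and 175 to 440.5 in the SCt channel. These raw readings also lay below the median of the channel on every array. IGFBP2, spotted 10 times per array, stayed within 0.01 and 0.06 on all arrays. Its mean of 0.03 ± 0.03 (SD, n = 4) had the smallest spread of the tested members, at a limma adjusted p of 0.787. The probe was dim, with a raw intensity of 262 to 409 in the SB channel and 162 to 270 in the SCt channel. These readings were below the median of the channel on every array. IGFBP4 had log2 ratios of −0.31, 0.16, −0.18 and 0.33, which lay on both sides of 0 with a mean of −0.0013 ± 0.29 (SD, n = 4).

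IGFBP3, the main carrier of IGFs in serum, was read by 10 spots per array. Its log2 ratio was −0.13 on array 1, 0.19 on array 2, 0.39 on array 3 and 0.59 on array 4. The arrays disagreed in sign, and the mean of 0.26 ± 0.31 (SD, n = 4) gave a limma adjusted p of 0.167. The SD between the 10 spots of an array was 0.03 to 0.05, which is below the spread between arrays. Without array 1 the mean was 0.39 at an adjusted p of 0.036, without array 3 it was 0.21 at 0.511, and without array 4 it was 0.15 at 0.30. With median centring it was 0.47 at 0.0053. IGFBP5 (probe A_23_P383009) was not well above background in either channel of any array. Its raw intensity was 46 to 52 in the SB channel, where the local background read 43 to 48, and 36.5 to 42 in the SCt channel, where it read 29 to 31. No fold is given for it.

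IGF1R (probe A_23_P417282) had a log2 ratio of 0.16 on array 1, 0.68 on array 3 and 0.31 on array 4. The spot on array 2 was marked as an outlier by the scanner software and was left out. SB cells were higher on each of the 3 arrays, by 0.38 ± 0.27 (SD, n = 3), with a 95% interval of 0.17 to 0.59 and a limma adjusted p of 0.052. With the outlier spot kept, the mean over 4 arrays was 0.28 at a limma adjusted p of 0.144, so the array 2 value lay below the mean of the other 3. Without the filter on dim probes the adjusted p was 0.049, and with median centring the log2 ratio was 0.72 at 0.0015. The spot was very bright, with raw readings of 49676, 73349 and 59323 in the SB channel on arrays 1, 3 and 4. In the SCt channel it read 18246, 24870 and 27459. The size of the ratio thus depended on the dye normalization at this brightness, which was not tested further. Without array 1 it was 0.49 at an adjusted p of 0.038, without array 4 it was 0.42 at 0.0044, and without array 3 it was 0.23 at 0.294. The normalized log2 level was 15.05, 15.54 and 15.47 in SB cells and 14.90, 14.87 and 15.16 in SCt cells on these arrays.

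IGF2R had log2 ratios of 0.15, 0.27, 0.11 and 0.27 on arrays 1 to 4. SB cells were higher on all arrays, by 0.20 ± 0.08 (SD, n = 4), at a limma adjusted p of 0.079. With median centring it was 0.34 at an adjusted p of 0.0034. The ligand IGF2 was read by probe A_23_P421379, with a mean of 0.09 ± 0.07 (SD, n = 4) and an adjusted p of 0.404. The other IGF2 probe, A_23_P150609, gave 0.16 ± 0.08 (SD, n = 4) and an adjusted p of 0.149. Every array was above 0 for both probes, and neither passed the threshold. Both probes were dim, with raw intensities of 310 to 483 in the SB channel and 162.5 to 298.5 in the SCt channel. IGF2 overlaps the readthrough gene INS-IGF2, so its probes may also read that transcript.

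**Figure D2:**
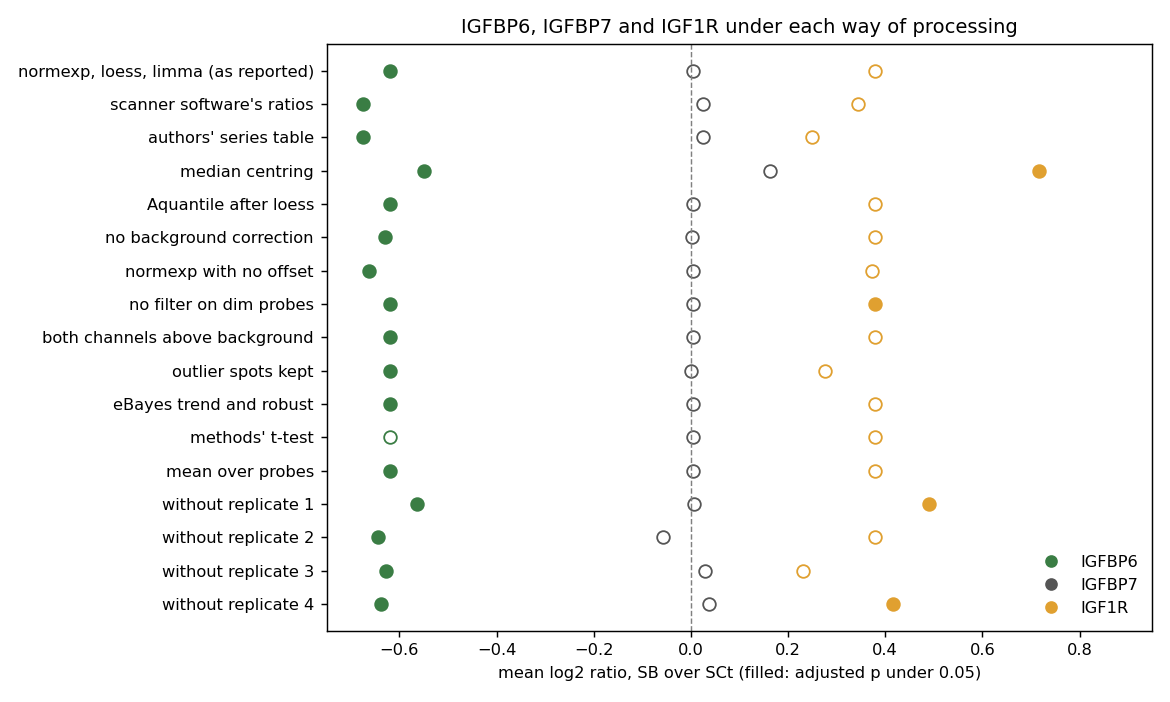
Mean log2 ratio of SB over SCt (horizontal axis) for IGFBP6, IGFBP7 and IGF1R under each way of processing the arrays (vertical axis), filled where the adjusted p was under 0.05. IGFBP6 stayed between −0.67 and −0.55 and was open only under the methods' t-test, IGFBP7 was open throughout, and IGF1R ranged from 0.23 to 0.72 and was filled under 4 settings.

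The level of some binding proteins changed between arrays in both lines together, which a ratio within an array does not show. This was noticed in the values and is described without a test. The level is the mean of the SB and SCt channels on the log2 scale after loess and quantile normalization between arrays. For IGFBP3 it was 12.87, 14.32, 14.23 and 11.23 on arrays 1 to 4. Arrays 2 and 3 were high and array 4 was low, an 8.50-fold range. SB cells alone ranged 7.48-fold and SCt cells alone 9.79-fold. The raw IGFBP3 intensity was 9877, 25772, 32057 and 3491 in the SB channel and 4909, 13549, 14288 and 1446 in the SCt channel. Of 28128 probes with 4 values, 2 had a larger range than IGFBP3.

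IGFBP6 varied 2.82-fold between arrays, with 0.665% of probes more variable. IGFBP1 varied 2.17-fold and IGFBP7 1.96-fold, with 1.96% and 3.27% of probes more variable. IGFBP2, IGFBP4, IGF2R and the brighter IGF2 probe varied 1.17-fold to 1.37-fold, with 28.3% to 74.1% of probes more variable. IGF1R varied 1.26-fold over 3 arrays. IGFBP1, IGFBP2, IGFBP3, IGFBP6 and IGFBP7 were each highest on array 2 and lowest on array 4, which makes 5 of the 6 tested binding proteins. That order was seen in 10.3% of all probes. IGFBP4 was highest on array 3 and lowest on array 4. The labels give no time, passage or density that differs between the arrays, and the part of any such difference was not tested.

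**Figure D3:**
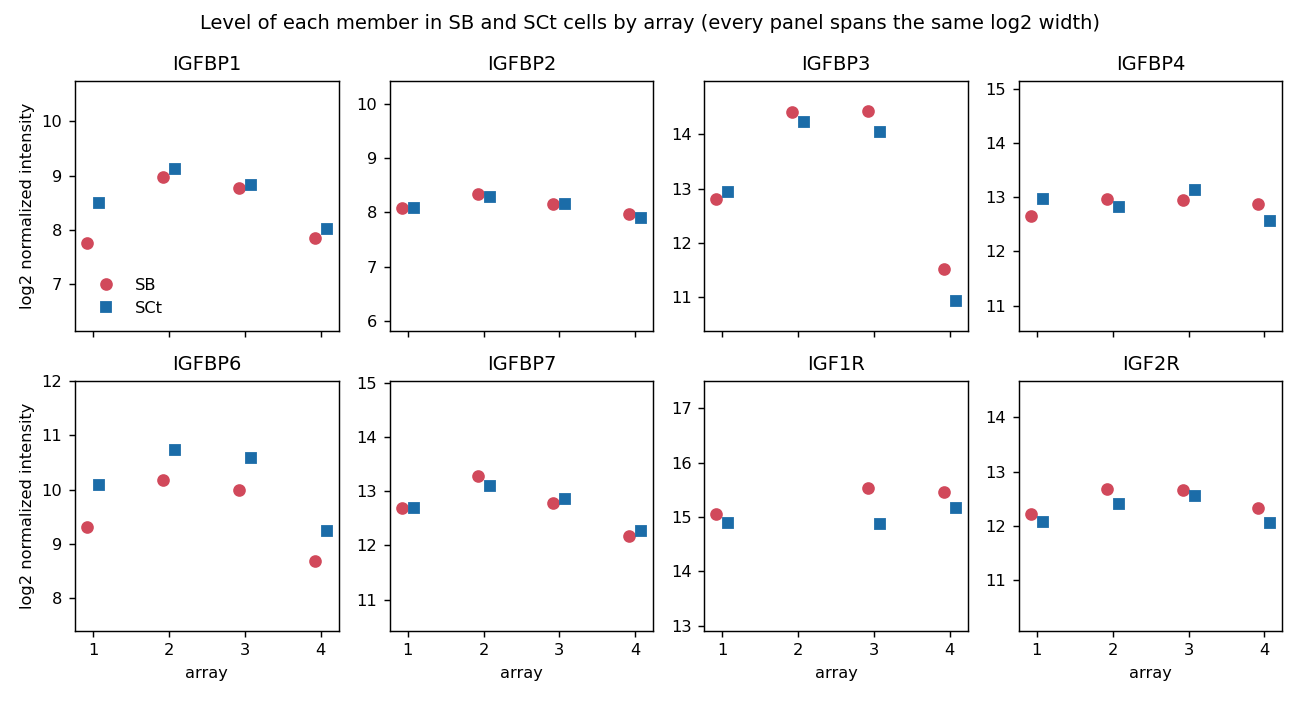
Normalized log2 intensity (vertical axis) of 8 members in SB cells (circles) and SCt cells (squares) on each array (horizontal axis), every panel spanning the same log2 width. In the IGFBP3 panel both lines lie near 14 on arrays 2 and 3 and near 11 on array 4, and in the IGFBP6 panel the SB point lies below the SCt point on every array. IGF1R has no point on array 2.

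The rest of the pathway was described with a list of 54 genes chosen by known role, of which 53 were named on the array and 46 were tested. One of the 46 (2.17%) was called, beside 3.52% of all genes, and 9 had an unadjusted p under 0.05, a share near the 18.2% of all genes. These are the values of each gene's brightest probe. A further 10 probes of these genes ran from −0.26 to 0.15, and 1 of them, of HTRA3, was called. The median log2 ratio was 0.01, the same as over all genes, and the values ran from −0.20 to 0.30. The called gene was CCN3 (also NOV), a secreted matricellular protein with an IGFBP-like domain. Its log2 ratio was 0.44, 0.38, 0.23 and 0.15 on arrays 1 to 4. All were above 0, with a mean of 0.30 ± 0.13 (SD, n = 4), a 1.23-fold higher level in SB cells at a limma adjusted p of 0.023. Without array 1, 2 or 3 the adjusted p was 0.094, 0.127 or 0.117, past the threshold in none of these.

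Of the other 10 tested relatives with an IGFBP domain, 0 were called. CCN5 had the lowest value, −0.11, which became 0.09 with median centring. CCN1, an integrin ligand, lay at 0.21 with an adjusted p of 0.058. A second probe of the serine protease HTRA3, dimmer than the one used for the gene, gave −0.26 ± 0.11 (SD, n = 4) at an adjusted p of 0.040, while the brighter probe gave −0.10 at 0.344.

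The other ligands and receptors (IGF1, INS, INSR and IGFALS tested) held 0 calls, with values from 0.05 for IGF1 to 0.10 for IGFALS, the acid-labile subunit that joins IGFBP3 and IGF in a ternary complex. The IGFBP proteases and their inhibitors held 0 calls among 5 tested. ADAM9, a metalloprotease that can cleave IGFBP5, had the lowest value, −0.20 at an adjusted p of 0.135, and with median centring it was −0.32 at 0.0094. STC1, an inhibitor of the IGFBP protease PAPPA, had the highest, 0.11 at an adjusted p of 0.338. It was −0.14 with median centring and 0.33 with the scanner software's ratios, past the threshold in neither. Among 17 tested genes of receptor-proximal signalling, 0 were called. GRB10, an adaptor that restrains the insulin and IGF1 receptors, had the lowest value, −0.15 at an adjusted p of 0.227, while its second probe gave 0.04. A second probe of the phosphatase PTPN11 lay lower, at −0.20 with an adjusted p of 0.130. PIK3R1, the regulatory subunit of PI3K, had the highest, 0.18 at an adjusted p of 0.103.

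In the group of the IGF2 locus and IGF2 mRNA binding proteins, 0 of 5 tested genes were called. IGF2BP3 had the lowest value, −0.20 at an adjusted p of 0.091, lay at 0.0021 with median centring, and was −0.24 at 0.033 without array 4. IGF2BP2 had the highest, 0.01, and a second IGF2BP2 probe gave 0.15 at an adjusted p of 0.265. With median centring IGF2BP2 was 0.21 at an adjusted p of 0.022. The 4 tested cell-surface partners of IGFBPs held 0 calls, with values from 0.01 for the integrin subunit ITGA5 to 0.05 for ITGB1. With median centring ITGB1 was 0.24 at an adjusted p of 0.034. A second probe of the endocytic receptor LRP1 gave −0.19 at an adjusted p of 0.093, and the brighter one 0.04.

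**Figure D4:**
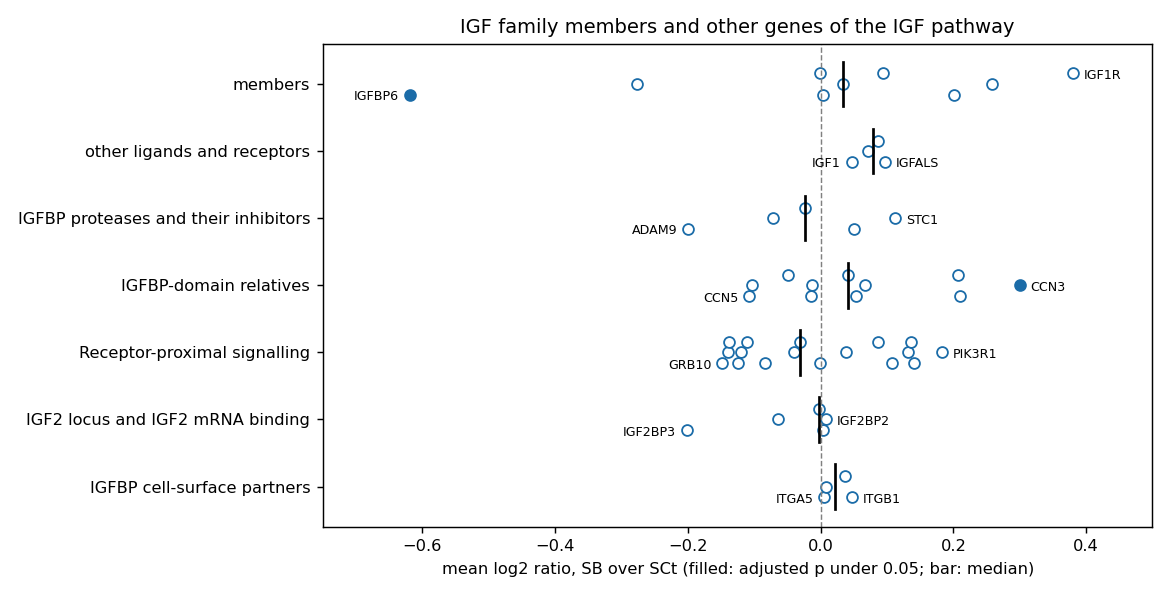
Mean log2 ratio of SB over SCt (horizontal axis) for the tested IGF family members and the tested genes of each pathway list (rows), with the lowest and highest gene of each row named, filled circles for an adjusted p under 0.05 and a bar for the median. Only IGFBP6 and CCN3 are filled, and the row medians lie between −0.03 and 0.08.

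The genes whose pattern over the arrays was most like that of IGFBP6 were found by the Euclidean distance of their log2 ratios over 4 arrays, among 16370 named genes with 4 values. They included NGFR, the low-affinity neurotrophin receptor, at a distance of 0.15, and UBE2H, SLC16A5 and RHOBTB2 at 0.20 to 0.21. NGFR had log2 ratios of −0.89, −0.61, −0.52 and −0.52 and a mean of −0.63. Like IGFBP6, it was lowest on array 1. The means of UBE2H, SLC16A5 and RHOBTB2 lay between −0.62 and −0.55, and all 4 named genes had a limma adjusted p under 0.05. For IGFBP7 the nearest genes were FJX1, VPS28, SNHG15, VEGFB and FKBPL, at distances of 0.03 to 0.05, and their means lay between −0.01 and 0.01. Both sets were picked by closeness of these same ratios. Their similar means, array order and adjusted p follow from that choice and are no separate result.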

How the data were processed

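Total RNA of SB and SCt cells (15 μg per labelling, per the labels) was hybridized on 4 Agilent human V2 two-colour arrays. The authors deposited the output of the scanner software (Feature Extraction 10.5.1.1, per the labels), which holds for each spot the median intensity of the red and the green channel and of the local background, on a linear scale and not normalized. The same files hold processed intensities and, as deposited, the software's log10 ratio of red over green after background subtraction and dye normalization. The authors also deposited a log2 table of the series. For 97.6% to 97.9% of the 34127 probes on an array, its value matched the log2 ratio of the processed signals (SB over SCt) to within 0.001, and its medians by array were −0.02, 0.02, 0.01 and 0.01. The design named linear signals, and the median intensities were used for them.

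The steps were run with limma 3.58.1 under R 4.3.3. The first was normexp background correction (offset 50). Next came removal of 1377 control spots and of outlier spots (814 to 1168 per array, 0 saturated). Loess within arrays (span 0.3) was fitted to the remaining spots. Last, the spots of a probe were averaged (999 probes spotted 10 times, 33128 once). Probes had to be well above background on all 4 arrays in one and the same channel, with at least 2 measured ratios, which left 28505. The mean log2 ratio was tested against 0 with lmFit and eBayes, with Benjamini-Hochberg adjustment over all kept probes, and the steps were tested on simulated data. Levels were taken after a further Aquantile step. Probes were named by accession through RefSeq (24826 of 34127 matched), the brightest kept probe stood for a gene, and the array's design gives no positions on the build used for the promoters.

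The members and lists were chosen with earlier results of these data known. Named are all members, MTDH, pathway genes past an adjusted p of 0.05, the highest and lowest gene of each pathway list, and the 5 genes most like IGFBP7 and IGFBP6, of which 1 is not reported here. CCN1, HTRA3, PTPN11, LRP1 and the genes under other observations were picked with their values in view. The following were tried as alternatives: ratios from the software or the series table, median centring or Aquantile, normexp without offset or no background correction, no filter or a stricter one on dim probes, keeping outlier spots, trend and robust moderation, the methods' t-test, a gene's mean over probes, and leaving out each array. The arrays lay on 1 slide, so no slide block was possible.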

Additional observations from a re-analysis of the deposited data

Results flagged for a closer look

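ITGA5, the integrin subunit that pairs with ITGB1 as a fibronectin receptor, had a log2 ratio of −0.30 on array 1, far from the other arrays, which lay between 0.08 and 0.14. The gap to the nearest array was 0.860 of the whole range, above the 95% critical value of 0.83 for 4 values. Of 20 genes examined in this way 1 stood out, and chance alone gives about 1 in 20.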

How the results depend on the processing

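MTDH and IGFBP6 kept their direction under every alternative run, and both kept an adjusted p under 0.05 except with the methods' t-test, which gave −3.18 at an adjusted p of 0.144 and −0.62 at 0.187. That test called 0 probes (3936 at an unadjusted p under 0.05), 0 members and 0 pathway genes. Probes called numbered 1056, against 698 with the series table, 8937 with median centring, 579 with trend and robust options, and 204 (without array 3) to 1991 (without array 4) with one array left out. Members called numbered 1, against 4 with median centring, 2 without the filter on dim probes, and 1 to 3 with one array left out. Pathway genes called numbered 1, against 14 with median centring, 0 with trend and robust options, and 0 to 4 with one array left out. IGF1R passed the threshold with median centring (0.72) and without the filter (0.38), and lay between 0.23 and 0.49 with one array left out. With one array left out, IGFBP7 lay between −0.057 and 0.037 and its difference from the other binding proteins between −0.015 and 0.14. The sign turned for IGFBP4 (0.010 with the software's ratios, 0.010 with the series table, 0.16 with median centring). With median centring it also turned for IGFBP2 (−0.0015), STC1 (−0.14), CCN5 (0.090) and IGF2BP3 (0.0021). With one array left out, values on both sides of 0 were seen for IGFBP4 (−0.11 to 0.10), IGF2BP2 (−0.020 to 0.040), ITGA5 (−0.039 to 0.11), IGF1 (−0.014 to 0.089) and ITGB1 (−0.067 to 0.098). Median centring moved the median of all probes from 0.01 to 0.06. The cause was not tested. Each log2 ratio already pairs SB with SCt cells within an array, so no further replicate block was fitted.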

Other observations

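The probes whose level varied about as much between arrays as that of IGFBP3, in both lines together, were listed after their values were seen. LOXL4, a lysyl oxidase that crosslinks collagen, varied 10.7-fold, and a probe named CR933610 varied 9.13-fold. The calcium-binding protein S100A9 varied 8.15-fold and HCAR3, a receptor for hydroxylated fatty acids, 7.49-fold. ANG, TMT1A, CYP1B1, PSMF1, ATF3, IFIT2 and LNP1 varied between 8.08-fold and 6.31-fold. Of these 11 probes 9 were lowest on array 4, as IGFBP3 was, while PSMF1 was lowest on array 1 and LNP1 on array 3. The share of all probes that were lowest on array 4 was not counted, so this count has no reference. S100A9 was higher in SB cells by a log2 ratio of 0.61 at a limma adjusted p of 0.012, CYP1B1, a cytochrome P450, by 0.91 at 0.0032, and ATF3, a stress-induced transcription factor, by 0.37 at 0.046.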
